A study of Mus musculus with 17 samples.

Results

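The group described here is 10 cytokine genes of the 50600 genes counted in each library. They were chosen as a named list and found by matching Ensembl gene identifiers to symbols: the myeloid growth factors Csf1, Il34 and Csf2, the IL-1 family genes Il1a, Il1b and Il33, the acute inflammatory genes Tnf and Il6, and Il10 and Il15. Their RNA was compared over 5 groups of C57BL/6J mouse tissue in a study of a rhabdoid tumor model. Tumors of 4 labelled kinds carried the genotype SMARCB1 -/-; the gene encodes a subunit of SWI/SNF, which remodels chromatin. They were CNS tumors of the SHH subtype (SHH CNS tumor, n = 3), CNS tumors of the Myc subtype (Myc CNS tumor, n = 4), tumors outside the skull (Extracranial tumor, n = 4) and tumors grown as grafts in the flank of syngeneic mice (Syngeneic graft, n = 3). Healthy brain of WT mice (n = 3) was the reference tissue. What drove the deletion, the ages of the mice and which tumors gave the grafts are not stated in the labels. The labels describe 14 separate tumors and 3 brain replicates, so a p-value covers the spread between those samples and nothing beyond it.

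Cytokines are secreted proteins through which cells signal to each other. Csf1 and Il34 both bind the receptor Csf1r, on which most tissue macrophages and the microglia of the brain depend. The IL-1 family and Tnf start inflammation through NF-kB, Il6 acts through STAT3, Il10 restrains macrophages, and Il15 sustains natural killer and memory T cells.

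Sequencing depth, as counts summed over genes, was 35662656 to 71390917 in SHH CNS tumors, 18685672 to 114338058 in Myc CNS tumors, 22491998 to 52956537 in extracranial tumors, 36951431 to 96214427 in grafts and 103095016 to 130835711 in healthy brain. Levels are given as CPM, counts scaled to library size, with TMM factors. Smarcb1 lay between 2.52 and 33.3 CPM in the 14 tumors, against 119 to 132 CPM in brain. Neuron markers summed to 801 to 4078 CPM in SHH CNS tumors, at most 564 CPM in the other tumors and 4830 to 6173 CPM in brain. Some libraries stood apart from their group in markers of other cells. SHH CNS tumor 1 held 10878 CPM of astrocyte and oligodendrocyte markers, led by Mbp at 4017 CPM, against 743 and 875 CPM in the other SHH CNS tumors. Healthy brain 1 held 238 CPM of epithelial, keratinocyte and muscle markers, against 7.52 and 8.41 CPM in the other brains. Extracranial tumor 4 held 12277 CPM of Mmp9, which is on the list of neutrophil markers, with the neutrophil gene S100a8 at 0.102 CPM. Myc CNS tumors 2 and 4 held 1583 and 2099 CPM of epithelial, keratinocyte and muscle markers, and Extracranial tumor 1 held 1406 CPM, led by Krt8 or Krt18.

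Across the 5 groups, 7 of the 9 testable cytokine genes differed: Csf1, Il1a, Il1b, Tnf, Il6, Il10 and Il15. Il34 (adjusted p = 0.159) and Il33 (adjusted p = 0.0972) did not pass, and Csf2 was too low to be tested. In the same test Il34 was called by limma voom with quality weights for the libraries, named limma voom below (adjusted p = 0.000114). Il33 was called by DESeq2 (adjusted p = 0.0231) and without Extracranial tumor 4 (adjusted p = 0.0369). The test was edgeR's quasi-likelihood test on all genes with Benjamini-Hochberg adjustment, called at an adjusted p under 0.05, and it called 64.7% of all 21494 genes tested. That was 13905 genes, where DESeq2 called 15831 and limma voom 18519. Low genes were removed first, at a cutoff of 0.189 CPM in at least 3 libraries. Il1b and Tnf passed that cutoff with no brain library over it, and Il6 and Il10 with no library over it in brain or SHH CNS tumors. These 4 genes had to be higher in a tumor group to be tested at all. The counts of called cytokine genes and their median fold changes are therefore descriptions and not evidence about the group of genes.

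Against healthy brain, 6 cytokine genes were higher in Myc CNS tumors, 7 in extracranial tumors and 6 in grafts, and none was lower. Over all genes, 25.3% were called higher and 26.8% lower in Myc CNS tumors, 26.1% higher and 26.1% lower in extracranial tumors, and 24.9% higher and 30.4% lower in grafts. The median log2 fold change of the 9 cytokine genes was 3.55 in Myc CNS tumors, 4.96 in extracranial tumors and 4.96 in grafts, where the medians of all genes were -0.01, 0.05 and -0.16. In SHH CNS tumors none of the 9 was called against brain, with a median log2 fold change of 1.26, while 2.44% of all genes were called higher and 1.94% lower and the median of all genes was -0.02. Il1a, Il1b and Tnf had an unadjusted p under 0.05 there. DESeq2 called these 3, limma voom called Il1a and Tnf, and a fit of the compared groups alone called Csf1, Il1a and Il1b. Over all genes, DESeq2, limma voom and that fit called 1592, 3248 and 629 higher, against 524 by edgeR with all libraries.

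**Figure D1:**
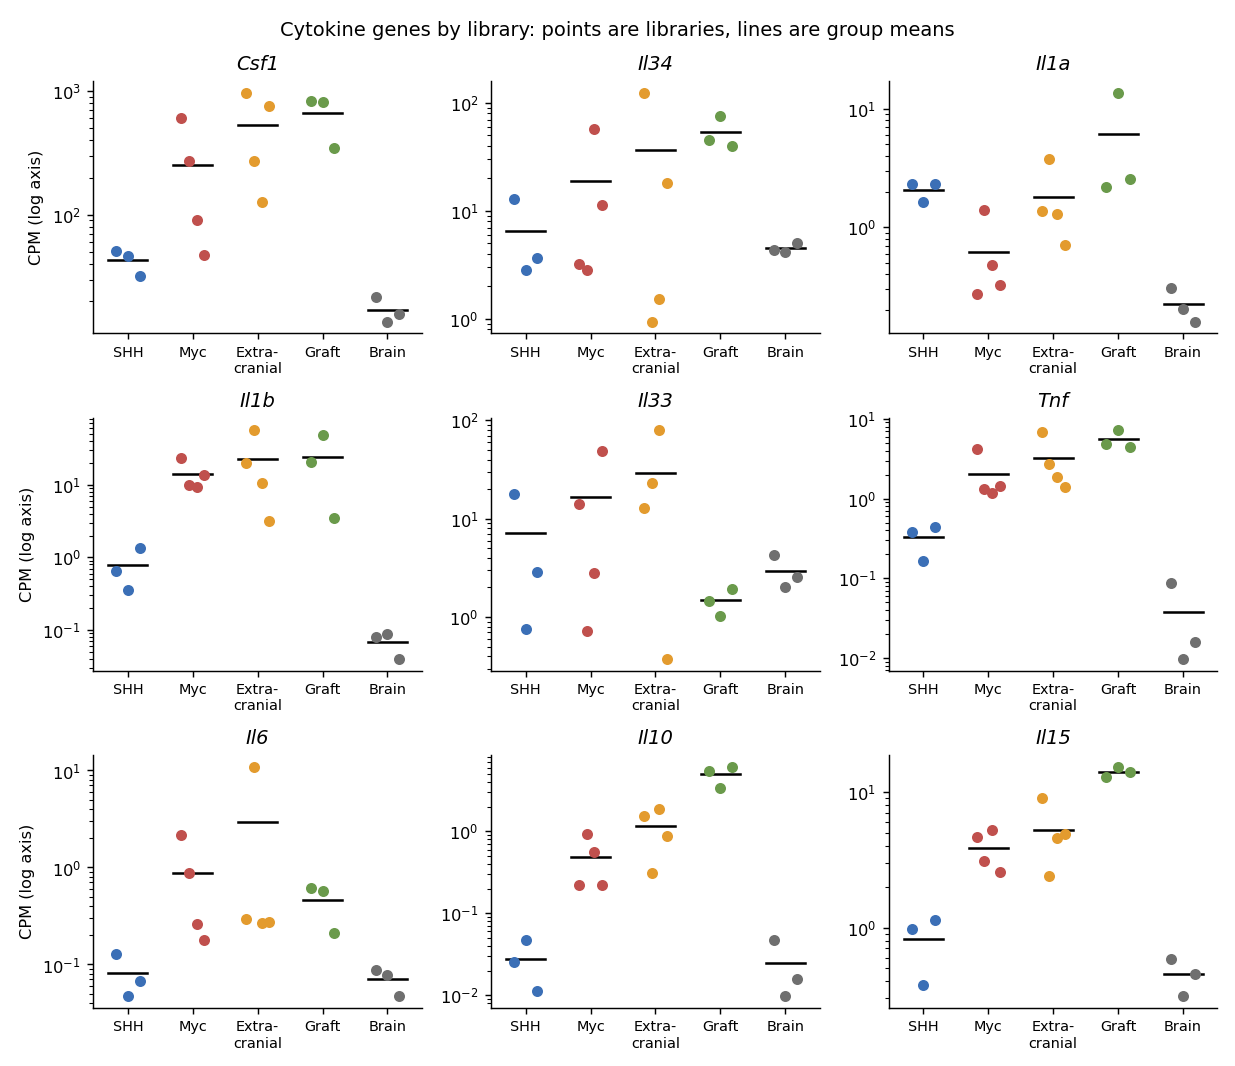
CPM of 9 cytokine genes in each of the 17 libraries, on log axes that differ between panels; points are libraries and horizontal lines are group means, with Csf2 left out because it was at 0 counts in 6 libraries. Il1b, Tnf, Il10 and Il15 stepped up between brain or SHH CNS tumors and the other tumor groups, whereas Il34 and Il33 were scattered within groups.

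**Figure D2:**
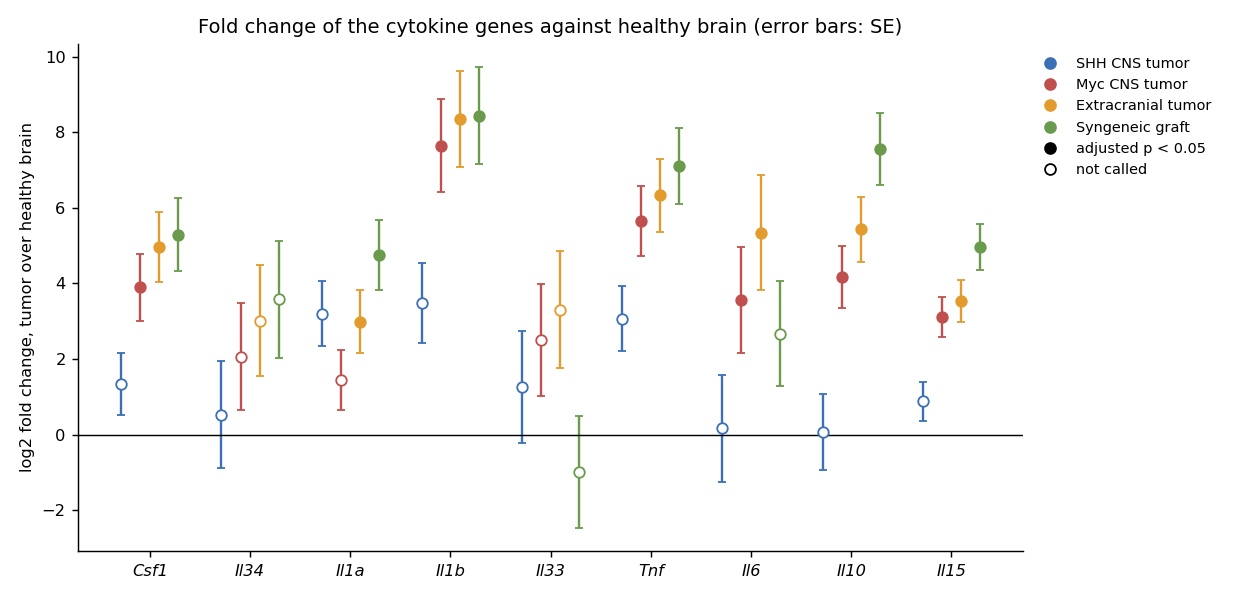
Log2 fold change of each cytokine gene in 4 tumor groups over healthy brain, from 1 fit of all 17 libraries; error bars are the SE, filled points passed an adjusted p of 0.05 and open points did not. The largest value was 8.44 for Il1b in grafts, and the only value below 0 was -0.996 for Il33 in grafts.

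Csf1, the main growth factor of macrophages (chr3:107741048-107760469, minus strand, GRCm38), was the most abundant of the 10 genes per kilobase of transcript in every group. It reached 51.0, 46.5 and 32.2 CPM in SHH CNS tumors, 606, 269.6, 91.1 and 47.7 CPM in Myc CNS tumors, 970.2, 269, 127 and 749.9 CPM in extracranial tumors, 836, 813 and 346 CPM in grafts, and 21.7, 13.7 and 15.8 CPM in healthy brain. Each tumor library was above each brain library, and the Myc CNS tumors alone among the tumor groups spanned from the SHH level to the graft level. Myc CNS tumors 1 and 2 held the higher values, at depths of 18685672 and 20594147 counts. Myc CNS tumors 3 and 4 held the lower values, at 114338058 and 70403211 counts. The number series carried by the deposited data also differed between these pairs, and its part in the Csf1 level was not tested.

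The log2 fold change of Csf1 over brain was 3.89 ± 0.88 in Myc CNS tumors (SE, adjusted p = 0.0023), 4.96 ± 0.93 in extracranial tumors (adjusted p = 0.000622) and 5.28 ± 0.96 in grafts (adjusted p = 0.000442). In SHH CNS tumors it was 1.34 ± 0.82 (adjusted p = 0.36), and in the fit of those 2 groups alone the adjusted p was 0.04. Without Myc CNS tumor 1 the Myc value was 3.00. Over SHH CNS tumors, Csf1 was higher by 3.61 ± 0.87 in extracranial tumors (adjusted p = 0.00519) and by 3.94 ± 0.90 in grafts (adjusted p = 0.00294) on the log2 scale. In Myc CNS tumors it was higher than in SHH CNS tumors by 2.55 ± 0.82 (adjusted p = 0.0233), and this call was lost without any 1 SHH CNS tumor (adjusted p = 0.0588 to 0.0763) and without Myc CNS tumor 1 (1.63, adjusted p = 0.0844).

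The promoter letters of 4 cytokine genes that were higher in several tumor groups are shown, to set the sequence beside genes that moved in the same direction. RefSeq (GRCm38.p6) gave a window for 7 of the 10 genes, with none for Il34, Il10 and Il15 in the table used. Each run is the 250 bases before the start site, 5′ to 3′ on the strand of the gene, for Csf1 (chr3:107760470-107760719, minus), Il1b (chr2:129371140-129371389, minus), Tnf (chr17:35202008-35202257, minus) and Il6 (chr5:30012864-30013113, plus). Capitals mark matches to the NF-kB consensus or to the AP-1 motif TGANTCA, searched on both strands, or to the TATA box TATAAA, searched on the strand of the gene. No matches overlapped.
Csf1: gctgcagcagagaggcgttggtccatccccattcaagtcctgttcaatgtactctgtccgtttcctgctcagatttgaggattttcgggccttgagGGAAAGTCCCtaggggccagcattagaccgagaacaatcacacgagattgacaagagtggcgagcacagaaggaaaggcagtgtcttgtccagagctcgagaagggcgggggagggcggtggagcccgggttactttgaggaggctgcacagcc
Il1b: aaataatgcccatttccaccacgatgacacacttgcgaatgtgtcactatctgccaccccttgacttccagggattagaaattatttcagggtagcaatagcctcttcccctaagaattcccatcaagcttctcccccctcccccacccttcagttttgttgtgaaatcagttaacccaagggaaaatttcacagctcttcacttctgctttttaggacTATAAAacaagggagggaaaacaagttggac
Tnf: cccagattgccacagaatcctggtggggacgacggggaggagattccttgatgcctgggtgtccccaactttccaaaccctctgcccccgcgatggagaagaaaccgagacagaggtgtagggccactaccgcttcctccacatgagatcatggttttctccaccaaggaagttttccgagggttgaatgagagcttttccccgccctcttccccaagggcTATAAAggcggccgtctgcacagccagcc
Il6: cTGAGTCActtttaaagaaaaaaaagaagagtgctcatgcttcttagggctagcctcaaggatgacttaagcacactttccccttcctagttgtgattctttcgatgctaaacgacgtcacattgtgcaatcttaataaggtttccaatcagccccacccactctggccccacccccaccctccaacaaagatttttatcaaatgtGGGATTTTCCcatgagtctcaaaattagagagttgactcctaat
Csf1 held an NF-kB match starting 154 bases before the start site, and Il6 held one 44 bases before it with an AP-1 match at 249 bases. Il1b and Tnf each held a TATA box, 31 and 29 bases before the start site. Of 32851 mouse promoters cut to the same length, 3.90% held the NF-kB consensus, 6.75% the AP-1 motif and 7.59% the TATA box. A match describes letters in this window only.

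Il34, the second ligand of Csf1r and in mice a product of neurons and keratinocytes (chr8:110741829-110805924, minus strand), varied widely within the tumor groups. Il34 stood at 12.96, 2.82 and 3.68 CPM in SHH CNS tumors, at 3.23, 2.82, 57.6 and 11.4 CPM in Myc CNS tumors, at 125, 0.934, 1.52 and 18.2 CPM in extracranial tumors, at 45.4, 75.9 and 39.6 CPM in grafts, and at 4.37, 4.12 and 5.003 CPM in healthy brain. Extracranial tumors included both the highest library of all and the lowest. Only the grafts lay wholly above brain, with a log2 fold change of 3.58 ± 1.55 that did not pass (adjusted p = 0.0636). DESeq2 called that difference (adjusted p = 0.0139), as did limma voom (adjusted p = 4.7e-05) and the fit of grafts and brain alone (adjusted p = 5.09e-05). Over all genes, DESeq2, limma voom and that fit called 5695, 7776 and 6648 higher in grafts, against 5349 by edgeR with all libraries.

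Per kilobase of the longest transcript, the share of Il34 in the sum of both ligands was 37.2%, 12.4% and 21.0% in SHH CNS tumors, 1.22%, 2.37%, 59.5% and 35.8% in Myc CNS tumors, 23.0%, 0.7997%, 2.71% and 5.34% in extracranial tumors, 11.2%, 17.8% and 21.0% in grafts, and 31.9%, 41.3% and 42.4% in healthy brain. The brain libraries sat close together, and all extracranial tumors and grafts sat below them. In Myc CNS tumor 3 alone Il34 exceeded Csf1. The Myc shares divided between the same pairs of libraries as Csf1, low in Myc CNS tumors 1 and 2 and higher in 3 and 4.

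**Figure D3:**
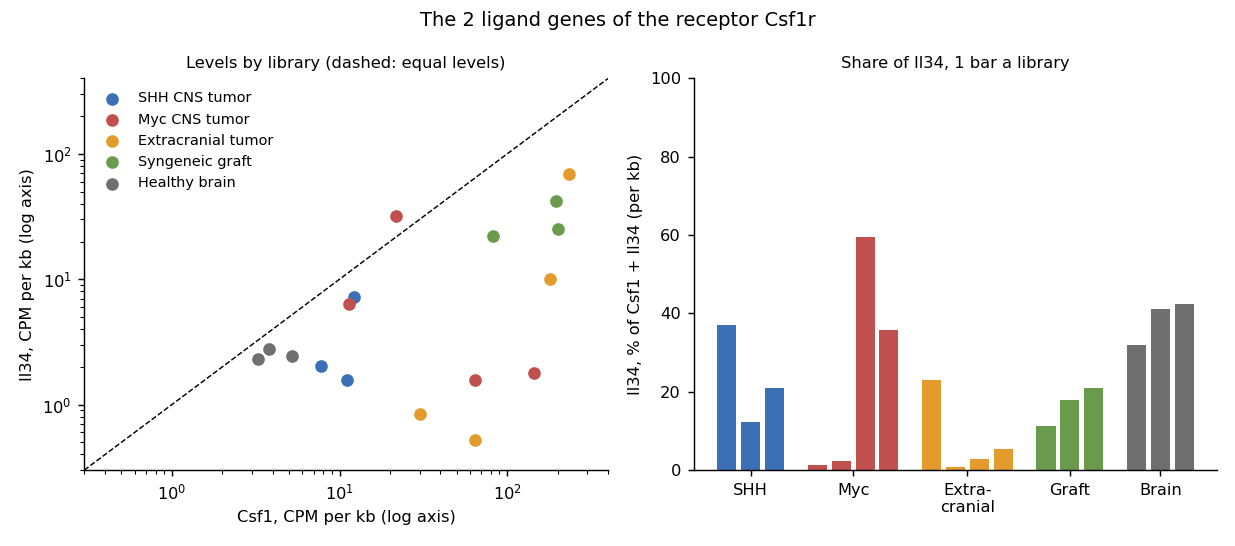
Left, Il34 against Csf1 in CPM per kilobase of the longest transcript, 1 point per library on log axes, with a dashed line at equal levels; right, Il34 as a percentage of the sum of both, 1 bar per library. Only Myc CNS tumor 3 lies above the line (59.5%), and the brain libraries lie between 31.9% and 42.4%.

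Csf2, the granulocyte and macrophage growth factor made mainly by activated lymphocytes and stroma (chr11:54247271-54249667, minus strand), was barely detected. Its counts were 0, 0 and 2 in SHH CNS tumors, 0, 0, 2 and 11 in Myc CNS tumors, 2, 1, 2 and 1 in extracranial tumors, 9, 3 and 21 in grafts, and 0, 0 and 1 in healthy brain. Where a count was 0, the library allowed a level of up to 0.161 CPM in Myc CNS tumors, 0.0841 CPM in SHH CNS tumors and 0.0291 CPM in brain, taking 3 counts as the limit and counting error only. Grafts gave the highest summed count, but only 2 libraries, both grafts, were over the cutoff, and Csf2 entered no test.

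Il1a and Il1b are neighbouring genes for the ligands of the receptor Il1r1; IL-1 alpha is active without cleavage, whereas IL-1 beta needs caspase-1. Il1a (chr2:129299610-129309972, minus strand) stood at 2.29, 1.65 and 2.30 CPM in SHH CNS tumors, at 0.273, 1.41, 0.480 and 0.329 CPM in Myc CNS tumors, at 1.37, 3.78, 1.28 and 0.714 CPM in extracranial tumors, at 2.19, 13.7 and 2.54 CPM in grafts, and at 0.310, 0.204 and 0.159 CPM in healthy brain. It was the one cytokine gene of the 10 whose SHH CNS tumors all lay above all Myc CNS tumors. Over brain, the log2 fold change was 3.20 ± 0.86 in SHH CNS tumors, just outside the threshold (adjusted p = 0.0502), and 1.44 ± 0.79 in Myc CNS tumors (adjusted p = 0.137).

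In extracranial tumors Il1a was higher than in brain by 2.99 ± 0.83 (adjusted p = 0.00818), or 2.29 without Extracranial tumor 2. In grafts it was higher by 4.76 ± 0.92 (adjusted p = 0.000699), or 3.37 without Syngeneic graft 2. The Myc CNS tumor over SHH CNS tumor difference was -1.76 ± 0.75 (adjusted p = 0.0739), and it was called by DESeq2 (adjusted p = 0.0299). Reads on the opposite strand are a limit for this gene: the overlapping Gm14023 held 813 counts over all libraries, against 1899 for Il1a, and the strand setting of the counting was not given in the sources used here.

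Il1b (chr2:129364570-129371139, minus strand) had the largest log2 fold change of the 9 tested genes over brain in every tumor group by edgeR with all libraries. In SHH CNS tumors Tnf was larger by limma voom (3.47, against 3.01 for Il1b) and without Healthy brain 1 (4.47, against 3.59), and Il1a without SHH CNS tumor 3, and in grafts Il10 was larger without Syngeneic graft 2 (7.74, against 7.41 for Il1b). The libraries held 0.644, 0.353 and 1.34 CPM in SHH CNS tumors, 23.6, 9.80, 9.36 and 13.8 CPM in Myc CNS tumors, 20.1, 57.5, 10.7 and 3.16 CPM in extracranial tumors, 20.9, 49.1 and 3.54 CPM in grafts, and 0.0794, 0.0873 and 0.0398 CPM in healthy brain. The 11 libraries of the last 3 tumor groups all lay above the SHH CNS tumors, and these all lay above brain. Over brain, the log2 fold change was 7.65 ± 1.23 in Myc CNS tumors (adjusted p = 0.000208), 8.34 ± 1.27 in extracranial tumors (adjusted p = 0.000128) and 8.44 ± 1.28 in grafts (adjusted p = 0.000118), resting on 5 to 10 counts per brain library.

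Without Extracranial tumor 2 the Il1b value of extracranial tumors was 7.29, and without Syngeneic graft 2 that of grafts was 7.41. In SHH CNS tumors Il1b had a log2 fold change of 3.48 ± 1.05 over brain (adjusted p = 0.074). Set against SHH CNS tumors, Il1b was higher by 4.17 ± 1.03 in Myc CNS tumors (adjusted p = 0.0058), by 4.86 ± 1.07 in extracranial tumors (adjusted p = 0.00299) and by 4.96 ± 1.09 in grafts (adjusted p = 0.00228). Without SHH CNS tumor 3 these were 4.82, 5.52 and 5.62, without Extracranial tumor 2 the second was 3.78, and without Syngeneic graft 2 the third was 3.90.

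Il33, a nuclear alarm cytokine released by damaged stromal, epithelial and glial cells (chr19:29925114-29960718, plus strand), did not follow the other 2 IL-1 family genes. Il33 stood at 17.7, 0.752 and 2.88 CPM in SHH CNS tumors, at 14.2, 0.730, 2.80 and 49.1 CPM in Myc CNS tumors, at 12.8, 22.9, 80.5 and 0.374 CPM in extracranial tumors, at 1.46, 1.03 and 1.95 CPM in grafts, and at 4.30, 2.04 and 2.55 CPM in healthy brain. Grafts were the 1 tumor group in which every library lay below every brain library. The log2 fold change over brain was 1.26 ± 1.48 in SHH CNS tumors, 2.497 ± 1.48 in Myc CNS tumors, 3.30 ± 1.55 in extracranial tumors and -0.996 ± 1.47 in grafts, and none passed (adjusted p = 0.656, 0.172, 0.0864 and 0.582). Extracranial tumors were called over brain by DESeq2 (adjusted p = 0.0216) and without Extracranial tumor 4 (3.69, adjusted p = 0.0405). The highest SHH library, SHH CNS tumor 1, was the one with 10878 CPM of astrocyte and oligodendrocyte markers, and without it the SHH value was -0.70; the part of those cells in the Il33 level was not tested.

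Tnf, the cytokine that activates endothelium and macrophages through Tnfrsf1a and Tnfrsf1b (chr17:35199381-35202007, minus strand), was lowest in brain and next lowest in SHH CNS tumors. The libraries held 0.386, 0.165 and 0.442 CPM in SHH CNS tumors, 4.21, 1.304, 1.19 and 1.42 CPM in Myc CNS tumors, 6.93, 2.74, 1.85 and 1.39 CPM in extracranial tumors, 4.84, 7.32 and 4.44 CPM in grafts, and 0.0873, 0.00971 and 0.0159 CPM in healthy brain. SHH CNS tumors lay wholly above brain and wholly below the other tumors, grafts lay wholly above Myc CNS tumors, and extracranial tumors overlapped both of these. The log2 fold change over brain was 5.65 ± 0.93 in Myc CNS tumors (adjusted p = 0.000251), 6.33 ± 0.96 in extracranial tumors (adjusted p = 0.000128) and 7.11 ± 1.01 in grafts (adjusted p = 6.83e-05).

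Those folds of Tnf rest on 11, 1 and 2 counts in the brain libraries. Without Healthy brain 1, which held the muscle and epithelial markers, they were 7.06, 7.74 and 8.52, and the value of extracranial tumors was 5.64 without Extracranial tumor 1 and that of Myc CNS tumors 5.04 without Myc CNS tumor 1. In SHH CNS tumors the value over brain was 3.06 ± 0.86 (adjusted p = 0.0583), and 4.47 without Healthy brain 1 (adjusted p = 0.0342). Over SHH CNS tumors, Tnf was higher in extracranial tumors by 3.27 ± 0.82 (adjusted p = 0.00668), or 2.55 without Extracranial tumor 1, and in grafts by 4.05 ± 0.87 (adjusted p = 0.00196). In Myc CNS tumors it was higher by 2.59 ± 0.79 (adjusted p = 0.0183), a call lost without SHH CNS tumor 2 (adjusted p = 0.0754) or Myc CNS tumor 1 (1.95, adjusted p = 0.0528).

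Il6, which drives the acute phase response through STAT3 (chr5:30013114-30019981, plus strand), was low in most libraries. The libraries held 0.129, 0.0470 and 0.0679 CPM in SHH CNS tumors, 2.19, 0.886, 0.262 and 0.179 CPM in Myc CNS tumors, 0.293, 10.9, 0.268 and 0.272 CPM in extracranial tumors, 0.619, 0.571 and 0.209 CPM in grafts, and 0.0873, 0.0776 and 0.0477 CPM in healthy brain. Every Myc CNS tumor, extracranial tumor and graft lay above every SHH CNS tumor and every brain library. Extracranial tumor 2 held 561 counts of Il6, against 6 to 9 counts in the other extracranial tumors. The log2 fold change over brain was 5.35 ± 1.51 in extracranial tumors (adjusted p = 0.00914), and 1.92 without that library (adjusted p = 0.0663). Likewise the extracranial over SHH difference of 5.18 ± 1.53 (adjusted p = 0.0164) was 1.73 without it (adjusted p = 0.131), and was lost without SHH CNS tumor 2 (adjusted p = 0.0635) or 3 (adjusted p = 0.0572). In Myc CNS tumors Il6 was higher than in brain by 3.55 ± 1.401 (adjusted p = 0.0458), a call lost without any 1 of the brain, SHH or graft libraries and without Myc CNS tumor 1 or 2 (adjusted p = 0.0523 to 0.134). In grafts the value was 2.67 ± 1.39 (adjusted p = 0.115). Il6 was called there by limma voom (3.02, adjusted p = 0.00216), in the fit of grafts and brain alone (2.66, adjusted p = 0.00386) and without Extracranial tumor 2 (2.65, adjusted p = 0.0142).

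Il10, the cytokine that limits macrophage activation (chr1:131019845-131024974, plus strand), rose furthest in grafts. Il10 stood at 0.0258, 0.0470 and 0.0113 CPM in SHH CNS tumors, at 0.219, 0.939, 0.559 and 0.224 CPM in Myc CNS tumors, at 1.56, 0.311, 1.88 and 0.884 CPM in extracranial tumors, at 5.49, 3.43 and 6.14 CPM in grafts, and at 0.0476, 0.00971 and 0.0159 CPM in healthy brain. SHH CNS tumors overlapped brain, with 1, 2 and 1 counts against 6, 1 and 2, and all grafts lay above all other libraries. Over brain, the log2 fold change was 4.17 ± 0.82 in Myc CNS tumors (adjusted p = 0.000913), 5.43 ± 0.86 in extracranial tumors (adjusted p = 0.000177) and 7.55 ± 0.96 in grafts (adjusted p = 2.86e-05), and these were 4.998, 6.26 and 8.38 without Healthy brain 1. In SHH CNS tumors it was 0.06 ± 1.004 (adjusted p = 0.982). Over SHH CNS tumors Il10 was higher by 4.11 ± 0.88 in Myc CNS tumors (adjusted p = 0.00244), by 5.37 ± 0.91 in extracranial tumors (adjusted p = 0.000538) and by 7.49 ± 0.99 in grafts (adjusted p = 8.14e-05).

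Il15, the growth factor of natural killer and memory T cells (chr8:82331632-82403222, minus strand), was higher than in brain in 3 of the 4 tumor groups. Il15 stood at 0.979, 0.376 and 1.13 CPM in SHH CNS tumors, at 4.70, 3.08, 5.25 and 2.57 CPM in Myc CNS tumors, at 9.12, 2.39, 4.62 and 4.93 CPM in extracranial tumors, at 12.9, 15.4 and 14.1 CPM in grafts, and at 0.588, 0.311 and 0.453 CPM in healthy brain. Grafts lay above all other libraries, Myc CNS and extracranial tumors overlapped each other, and SHH CNS tumors overlapped brain. The log2 fold change over brain was 3.11 ± 0.54 in Myc CNS tumors (adjusted p = 0.000354), 3.54 ± 0.55 in extracranial tumors (adjusted p = 0.000149) and 4.96 ± 0.60 in grafts (adjusted p = 2.06e-05), against 0.88 ± 0.52 in SHH CNS tumors (adjusted p = 0.344). Set against SHH CNS tumors, Il15 was higher by 2.23 ± 0.52 in Myc CNS tumors (adjusted p = 0.00407), by 2.66 ± 0.53 in extracranial tumors (adjusted p = 0.00157) and by 4.08 ± 0.58 in grafts (adjusted p = 0.00013).

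Between the tumor groups, the SHH CNS tumors stood apart from the others. Myc CNS tumors had 5 cytokine genes higher than SHH CNS tumors, where 19% of all genes were called higher and 21.9% lower. Extracranial tumors had 6 higher, where 18.6% of all genes were higher and 19.7% lower, and grafts had 5 higher, where 20.4% were higher and 25.8% lower. None was lower in any of these by edgeR with all libraries. Il1a was called lower in Myc than in SHH CNS tumors by DESeq2 (-1.83, adjusted p = 0.0299) and with the replicate block (-1.86, adjusted p = 0.0413). The same call was made without Myc CNS tumor 2 or Syngeneic graft 2. Csf1, Il1b, Tnf, Il10 and Il15 were called higher in each of these comparisons, and Il6 in extracranial tumors as well. Without Extracranial tumor 2, Il6 was instead called over SHH CNS tumors in Myc CNS tumors (log2 fold change 3.32, adjusted p = 0.00726) and in grafts (2.45, adjusted p = 0.0293). The Il6 difference of Myc over SHH CNS tumors was also called by DESeq2 (adjusted p = 0.0158), limma voom (adjusted p = 0.0361) and with the replicate block (adjusted p = 0.0412), and that of grafts over SHH CNS tumors by limma voom (adjusted p = 0.0212).

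Grafts were higher than Myc CNS tumors in 3 cytokine genes, while 3.12% of all genes were called higher and 2.88% lower. Il10 was higher by 3.38 ± 0.70 (adjusted p = 0.0196), Il15 by 1.86 ± 0.48 (adjusted p = 0.0378) and Il1a by 3.32 ± 0.78 (adjusted p = 0.0291) on the log2 scale, and in all 3 genes the 3 grafts lay above the 4 Myc CNS tumors. No cytokine gene was called when any 1 graft was left out, and without Syngeneic graft 2 the value of Il1a was 1.93 (adjusted p = 0.16). With the library number as a block, the adjusted p of Il10 was 0.0508. Il1a also lost its call with the compared groups alone (adjusted p = 0.0677) and without Myc CNS tumor 1, 3 or 4. Il15 lost its call with no filter (adjusted p = 0.0593), without Myc CNS tumor 1, 2 or 4 and without Healthy brain 2 or 3. The Il15 call was lost as well without both Healthy brain 1 and SHH CNS tumor 1. DESeq2 called Il33 lower in grafts (-3.51, adjusted p = 0.0354), and limma voom called Csf1 and Tnf higher.

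Grafts and extracranial tumors differed in no cytokine gene by edgeR, where 2.16% of all genes were called higher and 2.62% lower. Il1a, Il33, Il10 and Il15 had an unadjusted p under 0.05. Il10 was higher in grafts by 2.12 ± 0.67 (adjusted p = 0.0735) and Il15 by 1.43 ± 0.48 (adjusted p = 0.0847), with no overlap between the groups in either gene. DESeq2 called both, with Il33 lower in grafts (-4.26, adjusted p = 0.00853), and limma voom called Il10 and Il15. Over all genes, DESeq2 called 1504 higher and 2229 lower in grafts, and limma voom 1620 higher and 1230 lower. Extracranial and Myc CNS tumors differed in no cytokine gene by any of edgeR, DESeq2 and limma voom. Of all genes, edgeR called 0% higher and 0.0186% lower there, DESeq2 called 486 genes higher and 746 lower, and limma voom called 0. By edgeR, Il1a was the 1 cytokine gene with an unadjusted p under 0.05.

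On the scale of CPM per kilobase, which allows genes to be compared, Csf1 had the highest mean in every group. Il34 had the second highest, but in Myc CNS tumors it was level with Il1b, at 10.4 ± 14.6 for Il34 and 10.4 ± 4.88 for Il1b, and 32.1 of Il34 in Myc CNS tumor 3 stood against 1.57 to 6.36 in the other Myc CNS tumors. In extracranial tumors its mean likewise rested on Extracranial tumor 1, at 69.3 CPM per kilobase. In brain the next genes were Il33 at 1.16 ± 0.465 CPM per kilobase (SD) and Il15 at 0.236 ± 0.0726, with Il1b at 0.0508 ± 0.0188. In grafts Il1b was the third gene at 18.1 ± 16.97 CPM per kilobase, and Il33 was the eighth at 0.583 ± 0.181. In extracranial tumors Il34 at 20.2 ± 33.1, Il1b at 16.9 ± 17.8 and Il33 at 11.5 ± 13.9 CPM per kilobase did not differ beyond their spread. SHH CNS tumors were the 1 group in which Il1a (1.05 ± 0.1901 CPM per kilobase) ranked above Il1b (0.573 ± 0.372) among the tumor groups.

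The 17 receptor chains of these cytokines were higher in 13 cases in Myc CNS tumors, 14 in extracranial tumors, 12 in grafts and 1 in SHH CNS tumors, each against brain. The medians of their log2 fold changes over brain were 0.61 in SHH CNS tumors, 3.55 in Myc CNS tumors, 4.02 in extracranial tumors and 4.55 in grafts. The 1 chain that was lower was Ptprz1 in extracranial tumors, at 4.02 ± 4.53 CPM against 735 ± 59.6 CPM in brain (SD; log2 fold change -7.50 ± 1.88, adjusted p = 0.0043). Ptprz1 is a phosphatase of glia and their precursors that can also bind Il34. Astrocyte and oligodendrocyte markers were lower there too, summing to 249.7 to 403 CPM in extracranial tumors against 838 to 974 CPM in brain, with 6 of 11 called lower and a median log2 fold change of -3.71; their part in the Ptprz1 level was not tested. The chain called in SHH CNS tumors was Il10ra, the binding chain for Il10, at 7.96 ± 0.931 CPM against 1.42 ± 0.0430 CPM in brain (adjusted p = 0.024).

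Csf1r, the receptor for both Csf1 and Il34, averaged 93.7 ± 27.4 CPM in SHH CNS tumors, 302 ± 204 CPM in Myc CNS tumors, 694 ± 394 CPM in extracranial tumors, 1013 ± 209 CPM in grafts and 25.9 ± 5.60 CPM in brain. It was called over brain in Myc CNS tumors (3.55 ± 0.55), extracranial tumors (4.75 ± 0.58) and grafts (5.29 ± 0.61), and not in SHH CNS tumors (1.86 ± 0.53, adjusted p = 0.06). The Csf2 receptor split: its signalling chain Csf2rb was called in the same 3 groups with 4.30 ± 0.82, 5.18 ± 0.86 and 5.38 ± 0.88, whereas its binding chain Csf2ra was called in grafts alone (1.55 ± 0.54, adjusted p = 0.025). Csf2rb2, a close copy of Csf2rb that serves Il3 in mice, gave nearly the same values as Csf2rb, and reads shared by the copies could not be separated here.

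The IL-1 receptor gene Il1r1 averaged 6.83 ± 1.16 CPM in SHH CNS tumors, 62.9 ± 64.2 CPM in Myc CNS tumors, 75.8 ± 90.9 CPM in extracranial tumors, 10.7 ± 2.22 CPM in grafts and 6.13 ± 5.75 CPM in brain. It passed over brain in extracranial tumors (3.63 ± 1.37, adjusted p = 0.039) and lay just outside the threshold in Myc CNS tumors (3.36 ± 1.36, adjusted p = 0.0501), and in grafts, where Il1b was high, its log2 fold change was 0.80 ± 1.28 (adjusted p = 0.61). Its partner Il1rap lay within 11.8 and 35.5 CPM in the group means and was called over brain in no group. The Il33 receptor Il1rl1 averaged 83.3 ± 157 CPM in Myc CNS tumors, of which Myc CNS tumor 4, the Myc library with the highest Il33, held 319 CPM, against 0.281 ± 0.1004 CPM in brain.

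Tnfrsf1b, the inducible Tnf receptor, had the smallest adjusted p of the receptor list in the test over 5 groups (2.21e-07). It averaged 6.76 ± 1.42 CPM in SHH CNS tumors, 44.7 ± 15.1 CPM in Myc CNS tumors, 69.5 ± 20.4 CPM in extracranial tumors, 166 ± 15.7 CPM in grafts and 3.42 ± 0.807 CPM in brain. It was the 1 receptor chain called higher in grafts than in extracranial tumors (1.25 ± 0.27, adjusted p = 0.0289). Il6ra, the binding chain for Il6, was higher over brain by 3.85 ± 0.47 in Myc CNS tumors, 3.44 ± 0.46 in extracranial tumors and 4.55 ± 0.49 in grafts, while its shared signalling chain Il6st was higher by 0.66 ± 0.23, 0.90 ± 0.24 and 0.49 ± 0.25, the last with an adjusted p of 0.1. The 3 chains of the Il15 receptor, Il15ra, Il2rb and Il2rg, were each called in Myc CNS tumors, extracranial tumors and grafts, with Il2rb at 61.5 ± 15.4 CPM in grafts and 0.231 ± 0.112 CPM in brain.

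**Figure D4:**
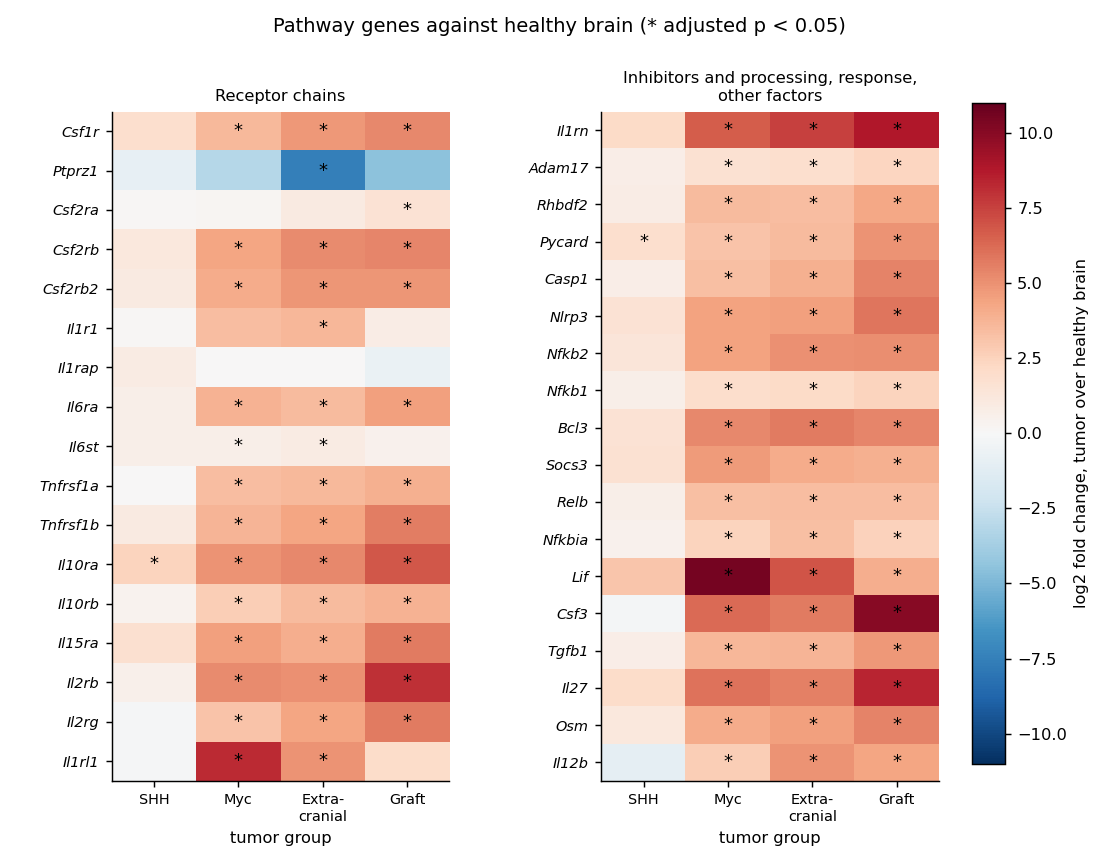
Log2 fold change over healthy brain of the 17 receptor chains (left) and of 18 other named pathway genes (right) in 4 tumor groups; colour gives the value and an asterisk an adjusted p under 0.05. Stars fill most cells of Myc CNS tumors, extracranial tumors and grafts, and 2 cells of SHH CNS tumors, Il10ra and Pycard; Ptprz1 is the receptor chain with the deepest fall (-7.50 in extracranial tumors).

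Genes that inhibit, process or release the cytokines were higher over brain in 10 of 10 cases in Myc CNS tumors, 8 in extracranial tumors, 9 in grafts and 1 in SHH CNS tumors, with medians of 3.42, 3.73, 4.84 and 0.73 in that order of groups. Il1rn, which encodes the antagonist of the IL-1 receptor, averaged 0.409 ± 0.236 CPM in SHH CNS tumors, 9.43 ± 4.52 CPM in Myc CNS tumors, 17.6 ± 9.61 CPM in extracranial tumors, 42.8 ± 29.8 CPM in grafts and 0.0935 ± 0.0705 CPM in brain. Its log2 fold change was 8.80 ± 0.94 in grafts (adjusted p = 8.3e-06), beside 8.44 for Il1b. The inflammasome genes Nlrp3, Pycard and Casp1, which lead to the cleavage of IL-1 beta, were higher in grafts by 5.91 ± 0.73, 4.97 ± 0.53 and 5.43 ± 0.66. Pycard was the 1 gene of the list called in SHH CNS tumors (1.81 ± 0.46, adjusted p = 0.042). Adam17, the protease that sheds Tnf, and its partner Rhbdf2 were higher in grafts by 2.39 ± 0.24 and 4.29 ± 0.48.

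Of 14 genes that respond to NF-kB or STAT3, 11 were higher over brain in Myc CNS tumors, 12 in extracranial tumors, 12 in grafts and 0 in SHH CNS tumors, and none was lower. Their medians were 2.49, 3.35, 3.41 and 0.64 in that order of groups. Nfkb2, a subunit of NF-kB, averaged 10.2 ± 2.003 CPM in SHH CNS tumors, 84.7 ± 7.70 CPM in Myc CNS tumors, 133 ± 57.4 CPM in extracranial tumors, 140.5 ± 14.5 CPM in grafts and 4.02 ± 1.98 CPM in brain. Its log2 fold change in SHH CNS tumors was 1.35 ± 0.36 (adjusted p = 0.051). Socs3, the feedback inhibitor of STAT3 signalling, averaged 198 ± 78.5 CPM in Myc CNS tumors, 129 ± 49.3 CPM in extracranial tumors, 115 ± 0.943 CPM in grafts and 7.85 ± 4.98 CPM in brain.

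Other myeloid growth factors and alarm cytokines differed in which tumor group they were high. Of 16 genes on this list 13 were tested, and 9 were higher and 1 lower over brain in Myc CNS tumors, 7 higher in extracranial tumors, 9 higher in grafts and 0 called in SHH CNS tumors, with medians of 3.64, 2.81, 3.96 and 0.71 in Myc CNS tumors, extracranial tumors, grafts and SHH CNS tumors. The gene that was lower in Myc CNS tumors was Kitl, the ligand of the receptor Kit, at 10.5 ± 5.11 CPM against 168 ± 70.6 CPM in brain (log2 fold change -3.996 ± 1.13, adjusted p = 0.00927), named after its value was seen. Lif, an IL-6 family cytokine, averaged 2.23 ± 0.374 CPM in SHH CNS tumors, 411 ± 153 CPM in Myc CNS tumors, 32.4 ± 32.3 CPM in extracranial tumors, 4.26 ± 2.40 CPM in grafts and 0.271 ± 0.0837 CPM in brain. It was lower in grafts than in Myc CNS tumors, with a log2 fold change of -6.597 ± 1.09 (adjusted p = 0.0103). Csf3, the granulocyte growth factor, was highest in grafts, with 32.7 ± 12.7 CPM in grafts, 2.42 ± 1.15 CPM in Myc CNS tumors, 1.71 ± 1.73 CPM in extracranial tumors and 0.0303 ± 0.0293 CPM in brain, and it was higher in grafts than in Myc CNS tumors (3.76 ± 0.85, adjusted p = 0.0257) and extracranial tumors (4.27 ± 0.87, adjusted p = 0.023).

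Macrophage markers were also higher in the tumors. The 10 macrophage and monocyte markers, which include Csf1r, summed to 209 to 393 CPM in SHH CNS tumors, 1232 to 3887 CPM in Myc CNS tumors, 1951 to 6984 CPM in extracranial tumors, 4726 to 8942 CPM in grafts and 56.5 to 78.8 CPM in brain, and none was at 0 in any library. Of these 10, 3 were called higher over brain in SHH CNS tumors and 10 in each of the other tumor groups. In bulk tissue, more cells of a type and more RNA per cell cannot be told apart, and the part of macrophages in the cytokine levels was not tested.

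Per 1000 CPM of macrophage markers, Tnf had similar values in all tumor groups: 0.788 to 1.78 in SHH CNS tumors, 0.885 to 1.15 in Myc CNS tumors, 0.521 to 1.05 in extracranial tumors, 0.541 to 1.55 in grafts and 0.149 to 1.11 in brain. Il15 gave 1.80 to 4.52 in SHH CNS tumors, 1.21 to 3.91 in Myc CNS tumors, 0.919 to 2.37 in extracranial tumors, 1.44 to 3.26 in grafts and 4.78 to 8.02 in brain, so its brain values were above all tumor values. Il1a was the opposite case within the tumors, with 5.85 to 10.6 in SHH CNS tumors and at most 2.89 in any other tumor. Its brain values lay between, at 2.81 to 3.93, and overlapped the highest graft. Il1b gave 1.69 to 3.40 in SHH CNS tumors, 6.08 to 11.2 in Myc CNS tumors, 1.18 to 22.1 in extracranial tumors, 0.679 to 10.4 in grafts and 0.703 to 1.35 in brain. These ratios are descriptions of single libraries and were not tested.

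**Figure D5:**
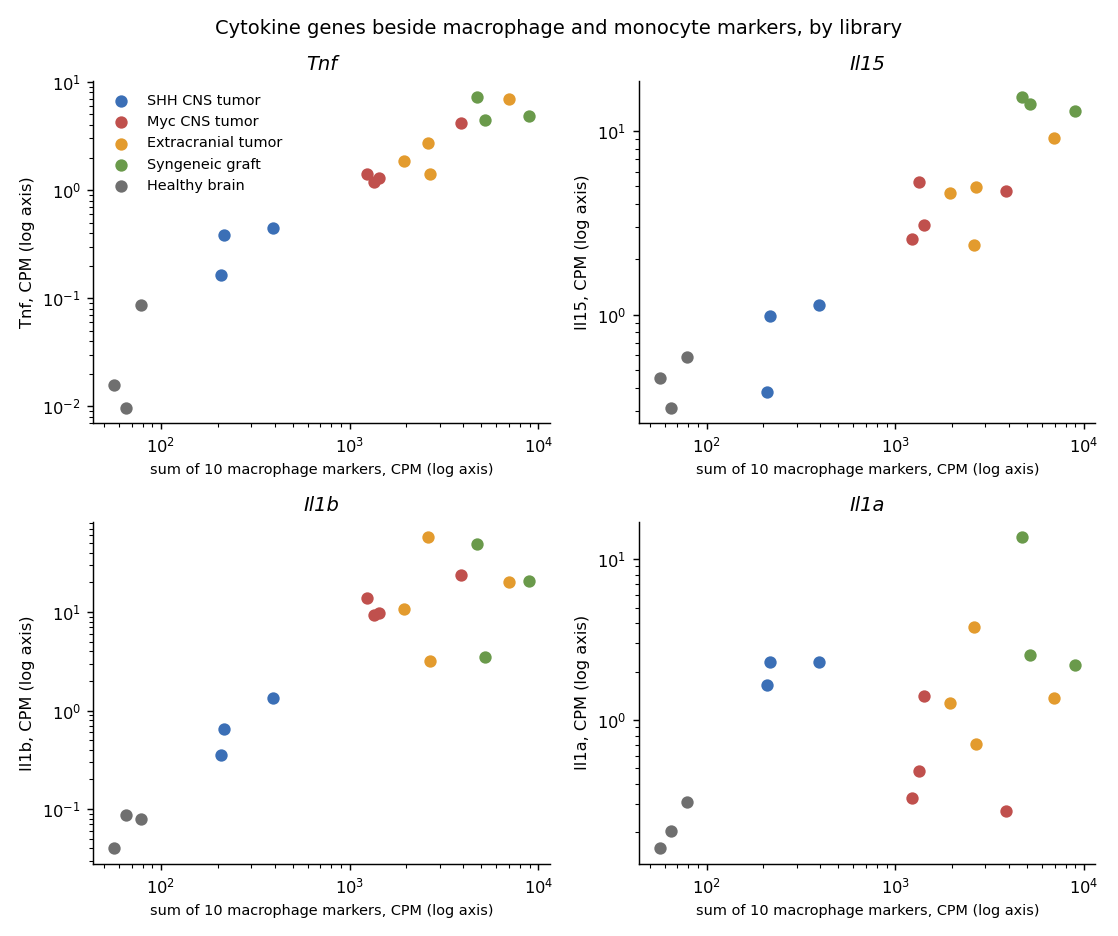
CPM of Tnf, Il15, Il1b and Il1a against the summed CPM of 10 macrophage and monocyte markers, 1 point per library, log axes. Tnf lies near a straight band from the SHH CNS tumors to the grafts, and the SHH CNS tumors lie above the Myc CNS tumors for Il1a although their marker sums are at most 393 CPM.

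Markers of other immune cells moved too. T and NK cell markers summed to 1.22 to 2.86 CPM in SHH CNS tumors, 2.24 to 19.2 CPM in Myc CNS tumors, 9.79 to 55.6 CPM in extracranial tumors, 102 to 209.8 CPM in grafts and 0.572 to 0.946 CPM in brain; Cd3e, Cd8b1, Ncr1 and Nkg7 were each at 0 in an SHH CNS tumor. Microglia markers summed to 401 to 450.0 CPM in SHH CNS tumors, 556 to 1373 CPM in Myc CNS tumors, 764 to 1498 CPM in extracranial tumors, 726 to 1029 CPM in grafts and 104 to 133 CPM in brain, with Siglech at 0 in a Myc CNS tumor and Sall1 at 0 in an extracranial tumor. Fibroblast and endothelial markers summed to 339 to 473 CPM in SHH CNS tumors, 3722 to 14157 CPM in Myc CNS tumors, 4758 to 9375 CPM in extracranial tumors, 2297 to 2579 CPM in grafts and 511 to 3486 CPM in brain. Of 8 neutrophil markers, 7 were called higher in Myc CNS tumors than in SHH CNS tumors, 6 in extracranial tumors and 6 in grafts. Their median log2 fold changes over SHH CNS tumors were 6.20, 5.03 and 5.27. Over brain, 5, 2 and 2 were called higher in the same groups, and none was lower. Neutrophil markers were uneven between libraries: S100a9 was at most 30.6 CPM in any library, Cxcr2 reached 152 CPM in Syngeneic graft 3, and Ly6g was at most 0.374 CPM and at 0 in SHH CNS tumor, Myc CNS tumor and brain libraries. The part of these cells in the cytokine levels was not tested.

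The genes whose CPM ranked most like a cytokine gene over the 17 libraries are given as descriptions, by Spearman's rho among 14272 genes with a mean of at least 1 CPM; libraries of 1 group share its tissue, so the values carry no test. Tnf was most like Arhgap25 (0.990), Pilra (0.985) and Slc11a1 (0.983), and Slc11a1 stayed among the 3 nearest when group means were removed (Pearson's r 0.941). Ifngr1 (0.971) and Acer3 (0.968) were among the genes most like Csf1. Il15 was most like Psmb8 (0.966), Skap2 and Trim14, and Il10 most like Klra3 (0.961), Psmb10 and Hpse. Il1b was most like Cd63-ps (0.924), Il6 most like Ier3 (0.926) and Il1a most like Tent5c (0.804). For Il1a, Il1b, Il6, Il10 and Il15 no gene was among the 3 nearest by both measures.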

How the data were processed

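RNA of 17 mouse tissue libraries was sequenced as stranded, polyA-selected libraries, per the labels' protocols. The authors deposited raw counts of reads per Ensembl gene, aligned with STAR 2.5.3a to mm10 per the submitters' processing notes; the counting tool and its strand setting are not named there or in the files. Gene names came from GENCODE and RefSeq tables of GRCm38, with 50376 of 50600 IDs matched.

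From the counts, edgeR 4.0.16 (R 4.3.3) fitted all 17 libraries together with TMM factors and the robust quasi-likelihood test, after a filter at a minimum count of 10 that left 21494 genes and 99.9635% of counts. Adjusted p-values are Benjamini-Hochberg over all of them and were called at 0.05. The tests were checked on simulated data with the same dispersion for every gene. That check gives no error rate for genes that vary as widely within groups as Il34 or Il6. Alternatives were RLE factors, no filter, a minimum count of 50, DESeq2 1.42.0 and limma 3.58.1 voom with quality weights. Further alternatives were the compared groups alone, a replicate block, and libraries left out. Limits at a count of 0 take 3 counts and cover counting error only.

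The 10 genes and the lists were chosen with earlier results of these data known. Other genes named are receptor chains of the 10, the 6 genes with the smallest adjusted p in each further list or some of them, and genes among the 3 most alike; 1 of these is not reported here.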

Additional observations from a re-analysis of the deposited data

Results flagged for a closer look

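Each of the 10 cytokine genes was examined in the 2 groups of 4 libraries for a library far from the other 3, and 5 of 20 such sets held one. The rule flags about 1 in 20 sets by chance only for normally distributed values. Here CPM was not on a log scale and the sets share libraries, so the 5 flags cannot be set against that rate. Il34 was 57.6 CPM in Myc CNS tumor 3, with the next Myc CNS tumor at 11.4 CPM. Il34 was also 125 CPM in Extracranial tumor 1, with the next at 18.2 CPM. Csf2 was 0.164 CPM in Myc CNS tumor 4, which is 11 counts, with the next Myc CNS tumor at 0.0175 CPM. Tnf was 4.21 CPM in Myc CNS tumor 1, with the next at 1.42 CPM; that library also had the highest Csf1 and Il1b of its group. Il6 was 10.9 CPM in Extracranial tumor 2, with the next at 0.293 CPM; the same library had the highest Il1a and Il1b of its group.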

How the results depend on the processing

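Of 99 pairs of a cytokine gene and a comparison, 45 were called. Under the alternatives and without each single library, 37 of these kept their call wherever the pair was tested, and none reversed. Not every pair was tested in each alternative: a minimum count of 50 and the fit of the compared groups alone left some out. A pair left out there was counted as kept. The number of genes called in SHH CNS tumors against brain was 0, and it was 1 at a minimum count of 50, 3 by DESeq2, 2 by limma voom, 3 with the compared groups alone, 2 with the replicate block, 1 without both Healthy brain 1 and SHH CNS tumor 1, and 0 to 3 without single libraries. Myc over SHH CNS tumors gave 5, all higher in Myc CNS tumors. The number was 7 by DESeq2 and with the replicate block, where Il1a was among them as lower. With the compared groups alone it was 3, where not every gene of the 5 was tested, and without single libraries it was 3 to 6. Grafts over Myc CNS tumors gave 3, against 5 by limma voom and 0 to 3 without single libraries. Grafts over extracranial tumors gave 0, against 3 by DESeq2 with Il33 lower among them, 2 by limma voom and 0 to 1 without single libraries. The cause was not tested. Over all genes, DESeq2 and limma voom also called more genes than edgeR in each of these comparisons. Of 31 same-numbered pairs of libraries, 2 had deviations correlated above 0.1 (range -0.172 to 0.160), and the replicate block lost 1 call and gained 4. Pairs with different numbers were not examined, so the check cannot decide whether library numbers pair the samples. Levels of Csf2, and of Il6, Il10 and Tnf in brain, rest on few counts, which limits their folds. Overlapping antisense genes make Il1a uncertain.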
